A study of Mus musculus with 8 samples.

Results

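Of the 24860 genes listed for mouse eggs in this series, 2981 were annotated as pseudogenes in GENCODE M21, and 353 of these averaged 2 FPKM or more across the 8 libraries. FPKM counts fragments per length of transcript and per depth of the library, so it is a relative level. Those 353 expressed pseudogenes are described here, with the gene each one was copied from placed beside it where the name or the sequence gives it. They were chosen by their mean FPKM over all libraries, WT and knockout together, and the difference between the groups was not used. The eggs were oocytes in metaphase of the second meiotic division from C57BL/6 females of 6 weeks (postnatal day 42), and were either wild type (WT) or carried the Esrp1 knockout (Esrp1_KO), whose allele the labels do not describe. Each group had 4 libraries, each made from a tube of 15 oocytes by Smart-seq2, a full-length cDNA method that starts from poly(A) tails and does not keep the strand. The labels call the libraries biological replicates, and do not say whether a tube held oocytes of 1 animal, so the p-values rest on differences among tubes. Tubes hold whole cells, so fewer transcripts per egg and a shift in all other transcripts cannot be told apart.

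A pseudogene is a copy of a gene that no longer encodes the full protein. Processed pseudogenes arose when a spliced mRNA was copied back into the genome by reverse transcription, and so lack introns, while unprocessed ones arose by duplication of genomic DNA. Pieces of mitochondrial DNA have also been inserted into the chromosomes. In mouse oocytes some pseudogene transcripts pair with transcripts of their parent gene and are cut by the ribonuclease DICER1 into small interfering RNAs (endo-siRNAs).

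How far a value can be credited to the copy depends on how much of its sequence is its own. To show this, 60-base stretches of 5 copies are printed beside the matching stretch of the parent's coding sequence, taken from the GENCODE M21 transcripts (GRCm38). Capitals mark the bases that differ, and a sequence without capitals is the same in both. The first 2 show copies that cannot be told from their parent over the coding sequence, Gm10925 (chr1:24614592-24614651, minus strand) of mt-Atp6 and Sms-ps (chrX:62776626-62776685, minus strand) of Sms:
Gm10925 and mt-Atp6: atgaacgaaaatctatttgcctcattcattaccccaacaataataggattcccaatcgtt
Sms-ps and Sms: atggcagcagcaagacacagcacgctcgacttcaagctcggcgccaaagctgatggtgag
The next 3 are copies whose ratio to the parent changed, Gm15754 (chr5:118503136-118503195, plus strand), 2700099C18Rik (chr17:94771162-94771221, plus strand) and Gm11448 (chr2:161287335-161287394, plus strand):
Gm15754: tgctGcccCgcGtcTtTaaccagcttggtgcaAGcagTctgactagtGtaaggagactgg
Btf3: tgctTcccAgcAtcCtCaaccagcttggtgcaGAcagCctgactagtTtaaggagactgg
2700099C18Rik: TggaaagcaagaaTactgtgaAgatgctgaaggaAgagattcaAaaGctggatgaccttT
Ndc80: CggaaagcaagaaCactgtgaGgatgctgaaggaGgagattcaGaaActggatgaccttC
Gm11448: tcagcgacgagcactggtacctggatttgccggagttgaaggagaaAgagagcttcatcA
Mphosph6: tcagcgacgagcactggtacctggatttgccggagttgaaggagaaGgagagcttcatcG
Over the aligned coding sequence, Gm10925 and Sms-ps differed from their parents at 0 of 678 and 0 of 1098 positions. Gm11448 differed at 16 of 458, Gm15754 at 73 of 490 and 2700099C18Rik at 516 of 1767, of which 9, 19 and 445 are gaps. Gaps are counted as differences here and below. As a measure for every member, the share of its 50-base stretches that occur unchanged in the transcripts of any other gene was computed. A read from a shared stretch fits both genes, and how the authors assigned such reads is not given in the sources used here.

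The set was made of 257 processed, 42 unprocessed, 29 transcribed processed and 19 transcribed unprocessed pseudogenes, 3 polymorphic pseudogenes, and 1 each of the immunoglobulin V, T cell receptor V and unspecified types. Most were unnamed loci (280 had a Gm number), and 274 had a single exon block. Their exon length had a median of 662 bases, against 4002.5 over all genes tested. The mean level had a median of 7.76 FPKM and a maximum of 679 FPKM, and 10 members reached 100 FPKM. The median share of 50-base stretches found elsewhere was 62.3%. It was 100% in 42 members, 0 in 36, and above 20% in 266. For 321 members a parent was found by alignment (at least 80% identity over at least 50% of the copy). For 43 the symbol itself names the parent, and in all 43 this was also the best match by sequence. At the edge of the rule stood Rps2-ps13 (2.01 FPKM), Pcna-ps2 (2.02) and Cyp2c53-ps (2.10) just inside, and Rps15a-ps4 (1.99), Gm2810 (1.996) and Gm8609 (1.998) just outside.

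The read totals recovered from the values lay between 24910433 and 32337966 per library. Esrp1 itself stood at 17.5 ± 1.42 FPKM in WT and 3.30 ± 0.680 FPKM in Esrp1_KO (SD, n = 4 each; log2 change -2.12 ± 0.15 SE, limma adjusted p = 1.32e-05). Summed levels of 8 oocyte markers were 7382 to 8128 FPKM in WT and 8660 to 9804 FPKM in Esrp1_KO. Most of this sum came from Gdf9, Bmp15 and Oosp1, which, like Nlrp5, did not pass. Single markers moved in both directions, with 3 higher and 1 lower in Esrp1_KO, each without overlap. Zp1, Zp2 and Zp3 rose (log2 change 0.95 ± 0.28, 0.75 ± 0.14 and 0.98 ± 0.16), and Mos fell (-0.91 ± 0.16). Of 12 listed granulosa and cumulus genes 10 were in the table and 2 were tested, with summed levels of 139 to 175 FPKM in WT and 156 to 200.1 FPKM in Esrp1_KO. Serpine2 stood at 148 ± 16.2 and 172 ± 18.9 FPKM and did not pass, and Cyp19a1 fell from 6.10 ± 0.706 to 1.87 ± 0.393 FPKM. The other 8 stayed low, with Fshr at 0 in all WT libraries and Ptgs2 at 0.0751 ± 0.0676 and 0.316 ± 0.135 FPKM, higher without overlap. The part of such cells in the results was not tested. Summed leukocyte markers were at most 2.25 FPKM in WT, and reached 11.3 FPKM in Esrp1_KO replicate 3. WT replicate 1 stood apart by the embryonic gene Obox6 (40.3 FPKM, at most 0.421 elsewhere). Of 10 listed cleavage-stage genes 9 were in the table, and Eif1a was also highest there (4.27 FPKM, at most 1.13 elsewhere). Others did not set it apart: among WT libraries Tcstv1 was lowest there (22.4 FPKM), Tcstv3 lay within the range, and Zscan4d was higher in replicate 2 (1.44 against 1.08 FPKM). Zscan4c, Zscan4f, Usp17lc and Zfp352 were at most 0.435 FPKM in any library. Counts over the members are therefore also given without WT replicate 1 and Esrp1_KO replicate 3.

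Knockout eggs held 53 pseudogenes at a higher and 76 at a lower level than WT eggs, while 224 did not pass the test (limma on log2(FPKM + 1), adjusted over 8021 genes at 0.05). The calls are 36.5% of the members, and the background over all genes tested was 36.9%, with 13.9% higher and 23.1% lower. The median log2 change was -0.05 over the members and -0.06 over all genes. Falls of at least 1 on the log2 scale were found in 40 members and rises of that size in 19, against a background of 7.34% of all genes that fell and 3.68% that rose by as much (11.0% together). The 4 WT and 4 Esrp1_KO values did not overlap in 44 members that were higher and 66 that were lower in Esrp1_KO, and the background of such genes was 13.5% higher and 23.3% lower (36.8% together). Among the 301 members with a mean of at least 2 FPKM in both groups, 41 rose and 57 fell. The others reached the rule through 1 group, 30 through WT (19 fell, 0 rose) and 22 through Esrp1_KO (12 rose, 0 fell), directions that the rule favours. Among members named below, Gm13273, Olfr289-ps1, Gm17177, Gm6821, Gm6829, Gm7823 and Atp6v0c-ps2 reached it only through Esrp1_KO, and Olfr650-ps1, Gm44650 and Gm10364 only through WT. Without WT replicate 1 and Esrp1_KO replicate 3, 36 members rose and 55 fell. The balance of rises and falls depends on scaling: after scaling by trimmed means (TMM), 64 rose and 58 fell, and the median of all genes moved from -0.06 to 0.06.

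**Figure D1:**
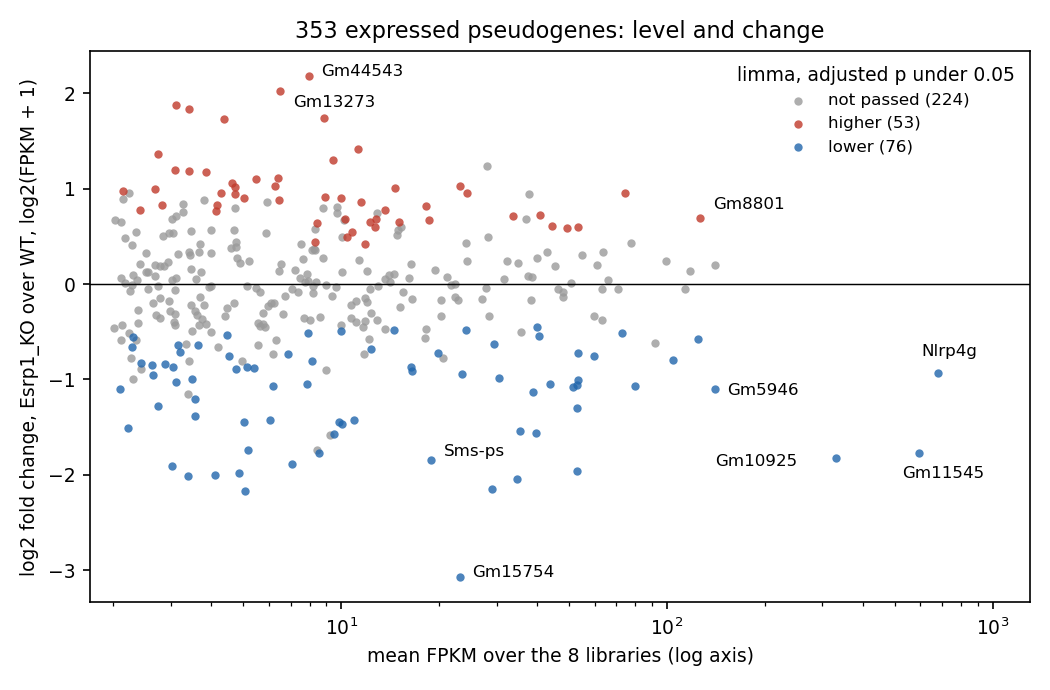
Each point is 1 of the 353 expressed pseudogenes, with its mean FPKM over the 8 libraries on a log axis and its log2 change in Esrp1_KO over WT, on log2(FPKM + 1), on the vertical axis. Colours give the 53 members higher, 76 lower and 224 not past the limma threshold, and the named members at the right, Nlrp4g, Gm11545 and Gm10925, lie below 0.

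By type, 42 processed pseudogenes rose and 40 fell of 257 (31.9% called), and 4 unprocessed ones rose and 17 fell of 42 (50%), beside 36.9% of all genes. Of those 17 falls, 6 were copies of mitochondrial genes lying in a row. Of the 29 transcribed processed members 3 rose and 11 fell, and of the 19 transcribed unprocessed members 2 rose and 6 fell. Of the 87 members with at most 20% of their sequence shared, 17 rose and 26 fell (49.4% called, median -0.17). Of the 266 above 20%, 36 rose and 50 fell (32.3%, median -0.02). The difference between these classes was not tested. Lying inside another gene applied to 67 members, on the host's strand for 36 and opposite for 31, and 7 of them rose and 9 fell. Reads without a strand cannot separate such a copy from intron sequence of the host.

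Of the total FPKM, the members together made up 2.57 ± 0.18% in WT libraries and 1.95 ± 0.035% in knockout libraries (n = 4 each). The ranges, 2.41 to 2.81% and 1.90 to 1.98%, did not overlap. Without the copies of mitochondrial genes the shares were 2.31 ± 0.15% and 1.86 ± 0.019%. The 87 members with little shared sequence summed to 3321 ± 444 FPKM in WT and 2028 ± 174 FPKM in Esrp1_KO. A few abundant members make up much of these sums, Nlrp4g and Gm11545 above all, and they are described first.

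Nlrp4g was the most abundant expressed pseudogene. It is an unprocessed copy of the Nlrp4 family (chr9:124348872-124356970, 8.49% shared), whose genes encode NLR proteins and are active in oocytes. WT libraries gave 732, 1305, 581 and 954 FPKM and Esrp1_KO libraries 612, 351, 323 and 577 FPKM. The groups overlapped, since the lowest WT value lay below the highest Esrp1_KO value. The change was -0.93 ± 0.29 on the log2 scale (adjusted p = 0.0287), and it missed the threshold without WT replicate 2 (0.0704) or 4 (0.0694), without Esrp1_KO replicate 2 (0.0705) or 3 (0.0754), and under TMM scaling (0.0595). Its nearest coding gene Nlrp4f fell too, from 516 ± 105 to 321 ± 39.1 FPKM (-0.67 ± 0.16, adjusted p = 0.00996). Another copy next to it, Gm47182, with no shared stretch, fell from 133 ± 42.8 to 75.1 ± 16.6 FPKM (-0.80 ± 0.23, adjusted p = 0.0206, and 0.052 under TMM scaling). Gm47180, also beside them, shares exon sequence with a neighbour and stood at 20.4 ± 5.82 FPKM in WT and 27.9 ± 8.15 in Esrp1_KO (adjusted p = 0.18).

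Gm11545 is an unprocessed pseudogene on chromosome 11 (chr11:94756976-94757763) whose best match is Tmem92, at 84.2% identity and with no shared 50-base stretch. It had 1316, 881, 899 and 562 FPKM in WT and 298, 218, 405 and 161 FPKM in Esrp1_KO. Every Esrp1_KO value lay below every WT value, and the level was 3.38-fold lower (log2 change -1.77 ± 0.31, adjusted p = 0.00181). Tmem92 itself was nearly silent, at 0.368 ± 0.232 FPKM in WT. In this pair the copy, and not the coding gene, was the transcript found in the egg.

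Other members with little shared sequence moved in both directions. Gm47672 (chr12:105135196-105135441, no parent found) fell from 84.8 ± 11.3 to 21.3 ± 4.20 FPKM (-1.96 ± 0.16, adjusted p = 3.28e-05). Olfr1300-ps1, a copy of the olfactory receptor family, gave 44.2, 47.7, 53.8 and 45.5 FPKM in WT and 14.4, 8.82, 7.98 and 9.68 FPKM in Esrp1_KO. Every knockout value lay well below every WT value (-2.15 ± 0.17, adjusted p = 2.75e-05). Another receptor copy, Olfr650-ps1, fell from 9.05 ± 5.15 to 1.07 ± 0.753 FPKM, and Olfr289-ps1, also a receptor copy, rose from 1.53 ± 0.853 to 7.23 ± 1.88 FPKM (adjusted p = 0.00293 and 0.000839). Gm44650 fell from 8.21 ± 2.86 to 1.48 ± 1.07 FPKM, and Gm10364 from 5.36 ± 2.49 to 0.696 ± 0.631 FPKM.

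Rises were led by lower-level members. Gm44543 (chr7:5414736-5415131, 0.288% shared) gave 3.35, 0.101, 5.20 and 1.92 FPKM in WT and 9.84, 18.9, 13.9 and 10.5 FPKM in Esrp1_KO, without overlap (2.18 ± 0.46, adjusted p = 0.00491). Gm13273 (no shared stretch) rose 5.59-fold, from 1.97 ± 1.02 to 11.0 ± 3.55 FPKM. Counts behind these low values were small, with 4 to 14 reads per library for Gm13273 in WT and 29 to 59 in Esrp1_KO. The most abundant member that rose was Gm8801 (chr17:35947246-35952297, 2.36% shared), an unprocessed copy of Ppp1r10, which encodes a nuclear targeting subunit of protein phosphatase 1. It gave 106, 103, 88.7 and 86.2 FPKM in WT and 192, 146, 152 and 139 FPKM in Esrp1_KO. All knockout values were above all WT values (0.70 ± 0.14, adjusted p = 0.00349), while Ppp1r10 stood at 13.7 ± 1.73 and 13.5 ± 0.242 FPKM.

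**Figure D2:**
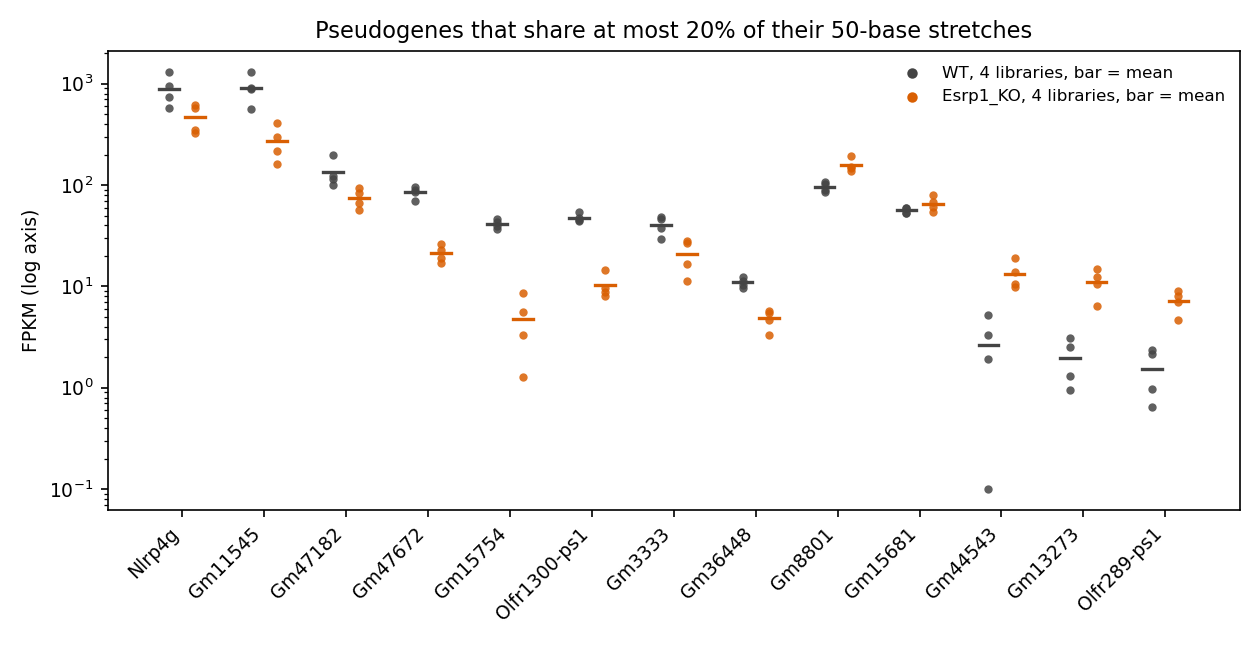
FPKM on a log axis for 13 members that share at most 20% of their 50-base stretches with other genes, with a point per library and a bar at the mean of 4 libraries for WT (grey) and Esrp1_KO (orange). Gm11545, Gm47672, Gm15754 and Olfr1300-ps1 are lower in every Esrp1_KO library than in any WT library, and Gm8801, Gm44543, Gm13273 and Olfr289-ps1 are higher.

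Nuclear copies of mitochondrial genes formed a group of their own. They are 7 unprocessed pseudogenes in a row on the minus strand of chromosome 1 (chr1:24611535-24616197), matching mt-Nd4, mt-Nd4l, mt-Nd3, mt-Co3, mt-Atp6, mt-Co2 and mt-Co1, genes for subunits of the respiratory chain and of ATP synthase. Their sequence was 99.7 to 100% identical to these genes, and 97.1 to 100% of their 50-base stretches were shared. Of the 7, 6 fell and 0 rose, a share of 85.7% beside the 23.1% of all genes that fell. As the 7 lie in a row and share nearly all stretches with mitochondrial genes, they are not independent observations. Nothing is read from this share. Their summed level went from 844 ± 193 FPKM in WT to 292 ± 96.5 FPKM in Esrp1_KO, and that of the mitochondrial genes themselves from 16883 ± 872 to 4351 ± 1233 FPKM.

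Gm10925, the copy of mt-Atp6, was among the 10 most abundant members. It gave 406, 654, 459 and 537 FPKM in WT and 99.2, 164, 209 and 120 FPKM in Esrp1_KO, with no overlap (-1.82 ± 0.24, adjusted p = 0.000356). The identical gene mt-Atp6 gave 466, 645, 514 and 599 FPKM in WT and 99.0, 152, 212 and 103 FPKM in Esrp1_KO. Copy and gene thus had nearly the same level in each library, and their ratio did not pass the test (change 0.20 ± 0.13 on the log2 scale, adjusted p = 0.386). Elsewhere the levels differed. Gm29216, which covers 31.1% of the coding sequence of mt-Co1, fell from 74.4 ± 12.4 to 31.6 ± 14.2 FPKM, and mt-Co1 from 2788 ± 134 to 734 ± 172 FPKM.

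Gm28439 (mt-Nd4) fell by 1.54 ± 0.20, Gm10222 (mt-Nd4l) by 1.47 ± 0.29, Gm28661 (mt-Co2) by 1.07 ± 0.31 and Gm28437 (mt-Co3) by 1.06 ± 0.29 on the log2 scale. Gm28661 lost its call without WT replicate 3 (adjusted p = 0.0524), Esrp1_KO replicate 1 (0.0505) or Esrp1_KO replicate 4 (0.0576). Gm28438, the copy of mt-Nd3, did not pass, with 6.59, 9.85, 6.49 and 6.81 FPKM in WT and 1.61, 5.59, 9.10 and 4.51 in Esrp1_KO. For Gm28439 and Gm10222 the ratio to the mitochondrial gene rose (0.53 ± 0.14 and 0.75 ± 0.21, adjusted p = 0.0431 and 0.0474), calls that ended with the replicate number as a block (0.0578 and 0.134) and without 1 library (all 8 fits for Gm28439, with adjusted p from 0.0522 to 0.114, and 6 of 8 for Gm10222, without WT replicate 2, 3 or 4 or Esrp1_KO replicate 1, 3 or 4, with 0.0636 to 0.128). With sequence this alike, reads of the mitochondrial genes and of the copies cannot be told apart.

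**Figure D3:**
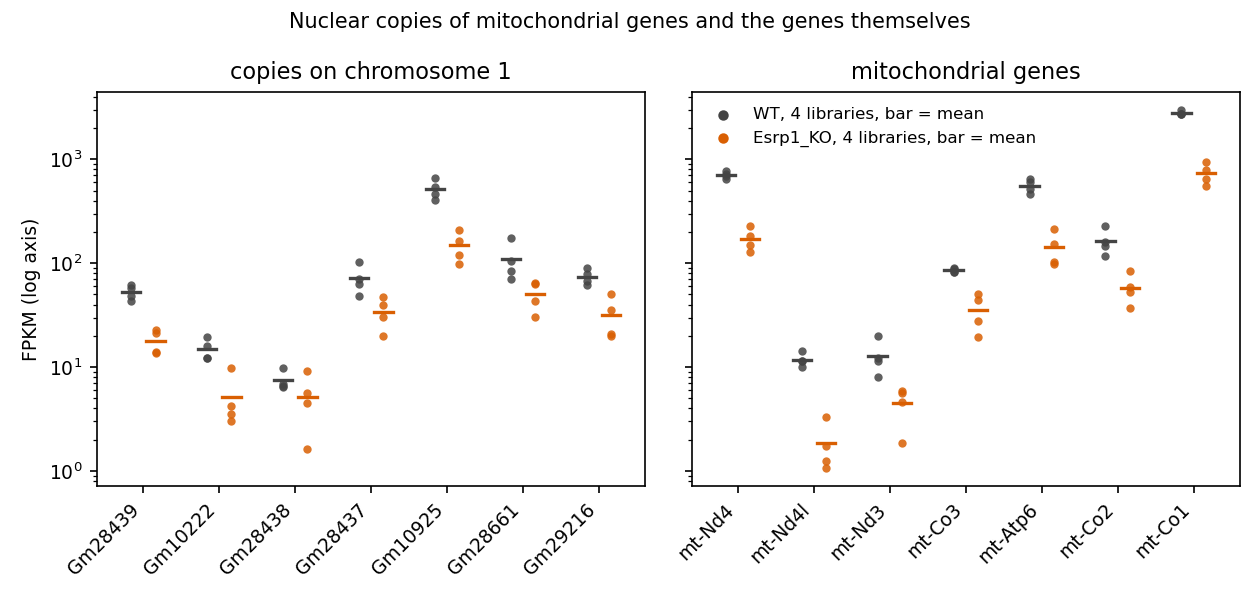
FPKM on a log axis for the 7 copies on chromosome 1 (left) and the matching mitochondrial genes (right), with a point per library and a bar at the mean of 4 libraries per group. Esrp1_KO lies below WT without overlap for 6 copies and for all 7 mitochondrial genes, and for Gm28438 the groups overlap.

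Copies and parent genes shared a call in some pairs and not in others. Of the 252 parent genes found by sequence, 212 were tested, and 36 were higher and 33 lower in Esrp1_KO (32.5% called, beside 36.9% of all genes). Copy and parent both rose in 25 members and both fell in 28. The copy fell and the parent rose in 6 members, and the reverse was found in 0. Only the copy passed in 13 members that rose and 19 that fell, and only the parent passed beside 30 members (parent higher) and 15 (parent lower). Neither passed in 143. No background for such joint counts was computed. A read from a shared stretch fits both genes, so like calls of copy and parent can rest on the same reads. Members with the same parent are also not independent. Among opposite calls, Gm44134 and Gm38706 share the parent Gm19965, and Gm7426 and Gm48110 share H3f3a. The 8 other copies of Gm19965 did not pass beside this parent, which was higher. The level of 113 members was above that of their parent, and 42 had a parent below 1 FPKM. The ratio of copy to parent, log2((copy FPKM + 1)/(parent FPKM + 1)), was tested in each of the 378 pairs by sequence with both at 1 FPKM or more. It passed in 13.8% of them. Among the 279 pairs of members it rose in 10 and fell in 28. Of these 28 falls, 10 share the parent Gm19965 and 3 the parent H3f3a, so they are not independent. With the replicate number as a block, 4 of the 378 ratios rose and 29 fell, against 12 and 40 without it. Of the 34 pairs with at most 20% shared sequence and another parent than Gm19965, 7 passed. Each ratio singled out below had an exact two-sided permutation p of 0.0286, the smallest that 4 against 4 libraries allow.

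**Figure D4:**
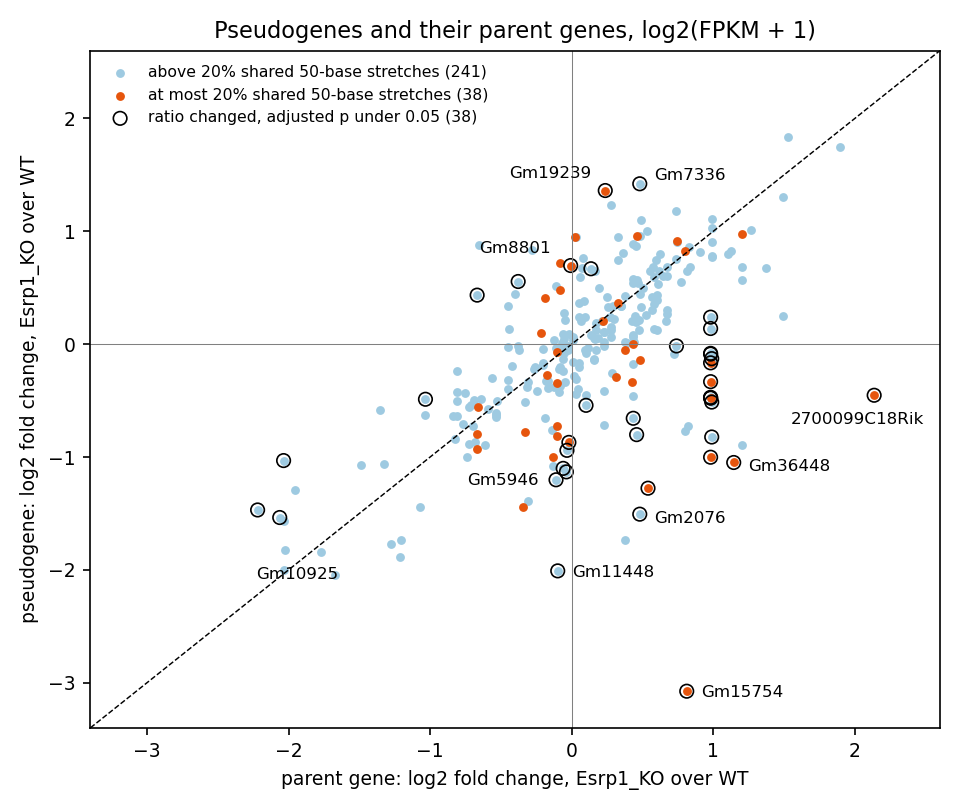
Log2 change in Esrp1_KO over WT of the parent gene (horizontal) and of the pseudogene (vertical), on log2(FPKM + 1), for 279 members with a tested parent, and the dashed line marks equal change. Circles mark the 38 pairs whose ratio passed the test, with Gm15754, 2700099C18Rik and Gm36448 far below the line, and the column of points at a parent change of 0.98 is the 10 copies of Gm19965.

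Gm15754 fell most of all members. It is a transcribed processed copy of Btf3, a subunit of the nascent polypeptide-associated complex, on chromosome 5 (chr5:118486967-118503500). Over its whole transcript it shares 0% of its 50-base stretches with any other gene, and a part of it is printed above beside Btf3. It gave 42.8, 39.7, 36.9 and 46.6 FPKM in WT and 8.65, 3.34, 1.29 and 5.65 FPKM in Esrp1_KO. Every knockout library was far below every WT library, an 8.77-fold lower mean (-3.08 ± 0.37, adjusted p = 0.00022). Btf3 moved the other way, with 285, 219, 292 and 209 FPKM in WT and 397, 510, 548 and 329 FPKM in Esrp1_KO (0.81 ± 0.19, adjusted p = 0.00791). The ratio of copy to parent changed by -3.89 ± 0.52 (adjusted p = 0.00491).

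Gm36448 is an unprocessed copy of Atp6ap2, an accessory subunit of the vacuolar proton pump (16.7% shared). It fell from 10.9 ± 1.18 to 4.83 ± 1.09 FPKM (-1.05 ± 0.16, adjusted p = 0.000889), and Atp6ap2 rose from 44.7 ± 6.02 to 101 ± 17.6 FPKM (1.14 ± 0.16, adjusted p = 0.000482). The ratio changed by -2.19 ± 0.22 (adjusted p = 0.0011). 2700099C18Rik, a transcribed unprocessed copy of the kinetochore gene Ndc80 (11.8% shared), stood at 6.83 ± 1.29 FPKM in WT and 4.83 ± 1.71 in Esrp1_KO. It did not pass (adjusted p = 0.113, while with the replicate block adjusted p = 0.03948). Ndc80 gave 61.6, 58.2, 60.6 and 56.3 FPKM in WT and 234, 336, 254 and 242 FPKM in Esrp1_KO (2.14 ± 0.13), so that the ratio changed by -2.59 ± 0.16 (adjusted p = 4.71e-05).

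Gm5946, a transcribed processed copy of the Polycomb gene Bmi1 on the X chromosome (chrX:150220716-150226021, 24.3% shared), had the same level as Bmi1 in WT. It gave 189, 210, 192 and 175 FPKM in WT and 105, 101, 72.4 and 79.8 FPKM in Esrp1_KO, without overlap (-1.10 ± 0.14, adjusted p = 0.000384). Bmi1 gave 194, 188, 204 and 191 FPKM in WT and 173, 187, 201 and 185 FPKM in Esrp1_KO and did not pass. The ratio fell by 1.04 ± 0.19 (adjusted p = 0.0087, and 0.0552 without WT replicate 1 and Esrp1_KO replicate 3). Gm11448, a processed copy of Mphosph6, a phosphoprotein of M phase, fell from 5.98 ± 0.169 to 0.794 ± 0.492 FPKM (-2.01 ± 0.21). Mphosph6 was far more abundant, at 1364 ± 219 and 1285 ± 280 FPKM, and did not pass (ratio change -1.91 ± 0.30, adjusted p = 0.00621). Gm11448 was a member only through WT, so the rule favoured a fall.

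In the other direction, Gm19239, a processed copy of the purine synthesis gene Paics with no shared stretch, rose from 1.09 ± 0.495 to 4.38 ± 1.41 FPKM (1.36 ± 0.22, adjusted p = 0.0011). Paics stood at 14.7 ± 3.69 and 17.3 ± 2.89 FPKM, and the ratio rose by 1.12 ± 0.20 (adjusted p = 0.00725, and 0.0552 without WT replicate 1 and Esrp1_KO replicate 3). Gm19239 was a member only through Esrp1_KO, so the rule favoured a rise. The ratio of Gm8801 to Ppp1r10 rose by 0.70 ± 0.18 (adjusted p = 0.0357). That call ended with the replicate block (0.0576), after quantile normalization (0.0973) and in the fits without WT replicate 1 (0.0754), 3 (0.0885) or 4 (0.0946) or any 1 Esrp1_KO library up to replicate 3 (0.0592 to 0.0826).

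Copies of the histone H3.3 gene H3f3a changed in both directions. Of 8 members, 5 rose and 2 fell, beside 13.9% and 23.1% of all genes, and H3f3a rose from 4.68 ± 1.95 to 10.2 ± 3.68 FPKM (0.99 ± 0.29, adjusted p = 0.0251). The stretch of the coding sequence from base 103 to 162 was chosen because it holds the most differing bases over the 8 copies. It is printed for the parent, 2 copies that rose and 2 that fell, with capitals where a copy differs from H3f3a:
H3f3a: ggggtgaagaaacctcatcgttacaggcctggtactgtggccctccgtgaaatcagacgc
H3f3c (chr2:119665875-119665934, minus strand, higher): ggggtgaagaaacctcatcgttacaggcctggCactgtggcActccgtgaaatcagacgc
H3f3a-ps1 (chrX:101824617-101824676, plus strand, higher): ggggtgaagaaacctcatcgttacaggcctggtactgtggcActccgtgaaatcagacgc
Gm7426 (chr13:13419008-13419067, minus strand, lower): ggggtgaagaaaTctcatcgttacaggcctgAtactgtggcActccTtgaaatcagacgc
Gm48110 (chr12:87538006-87538065, plus strand, lower): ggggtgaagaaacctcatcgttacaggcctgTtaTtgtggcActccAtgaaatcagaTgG
Over the whole coding sequence of 408 bases, H3f3c differed at 4 positions and H3f3a-ps1 at 7, against 27 for Gm7426 and 35 of 407 aligned positions for Gm48110. Gaps were 4 of the 27 and 10 of the 35. Of the copies not printed, Gm48458, which did not pass, differed at 28, of which 4 are gaps. Gm10257, Gm12657 and Gm6421, which rose, differed at 4, 6 and 3 (of 406 aligned positions for Gm6421).

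H3f3c gave 13.6, 10.9, 21.3 and 14.3 FPKM in WT and 24.4, 32.3, 39.7 and 28.8 FPKM in Esrp1_KO, without overlap (1.03 ± 0.21, adjusted p = 0.00411). H3f3a-ps1 rose from 3.81 ± 1.96 to 8.98 ± 1.92 FPKM (1.11 ± 0.26), Gm10257 from 1.52 ± 0.518 to 3.30 ± 0.885, Gm12657 from 9.88 ± 3.23 to 17.5 ± 3.94 and Gm6421 from 3.31 ± 1.85 to 6.74 ± 1.94 FPKM. These 5 share 54.3 to 85.4% of their stretches. Gm7426 (44.8% shared) fell from 9.41 ± 0.944 to 6.43 ± 1.64 FPKM and Gm48110 (33.0%) from 3.37 ± 0.994 to 1.5 ± 0.743 FPKM. Gm48458 (38.3%) stood at 7.06 ± 2.21 and 6.35 ± 1.78 FPKM and did not pass. The ratio to H3f3a fell for Gm7426 (-1.502 ± 0.30) and Gm48110 (-1.81 ± 0.36, adjusted p = 0.0125 each), calls that ended without WT replicate 1 and Esrp1_KO replicate 3 (0.0537 and 0.0552). In all, 3 ratios to H3f3a were called lower, so a copy that did not itself fall is among them. They share H3f3a, which rose, as denominator and are not independent. Gm10257 was a member only through Esrp1_KO and Gm48110 only through WT, so the rule favoured their directions. Some calls of single genes were near the threshold. H3f3a lost its call without WT replicate 1 (adjusted p = 0.0675) or 4 (0.0693) or Esrp1_KO replicate 2 (0.0631) or 4 (0.0678). Gm12657 lost its call without WT replicate 1, 3 or 4 or Esrp1_KO replicate 2 or 3 (0.0513 to 0.0625), and Gm6421 without WT replicate 1, 2 or 4 or Esrp1_KO replicate 2, 3 or 4 (0.0521 to 0.111). Gm7426 lost its call without any 1 WT library or Esrp1_KO replicate 1 or 2 (0.0628 to 0.116) and under TMM scaling (0.124), and Gm48110 without WT replicate 1, 3 or 4 or Esrp1_KO replicate 1 or 4 (0.0536 to 0.0692).

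**Figure D5:**
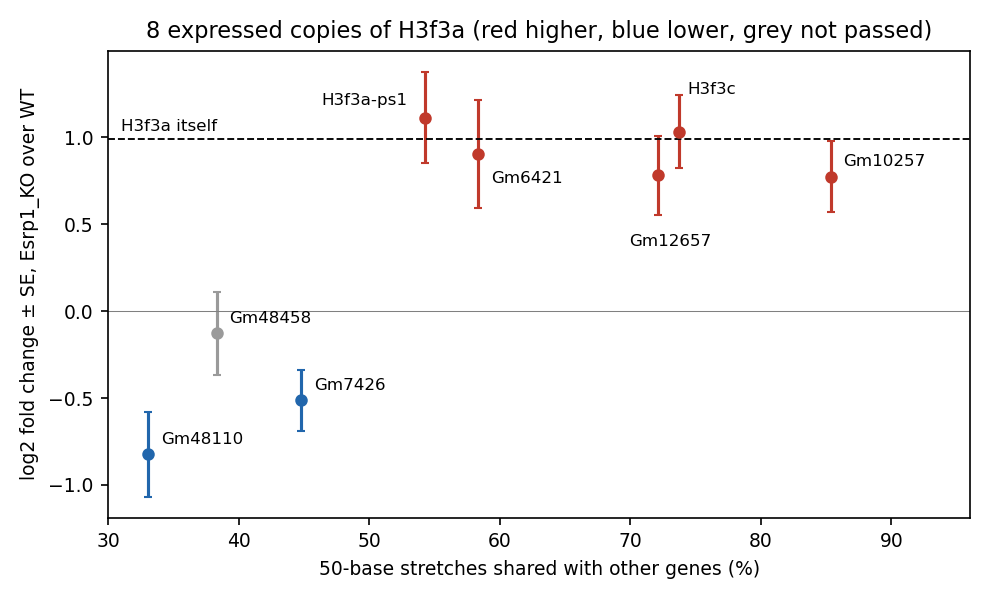
Log2 change in Esrp1_KO over WT, with its standard error, of the 8 copies of H3f3a against the percent of 50-base stretches that each has in common with another gene. The 5 copies above 50% lie near the dashed line of H3f3a itself (0.99), and the 3 below 50% lie under 0, except that Gm48458 is above 0 under TMM scaling (0.0013), without WT replicate 2 (0.030) and without Esrp1_KO replicate 1 (0.054).

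Of 4 copies of the glycolytic gene Gapdh, 2 rose, 1 fell and 1 did not pass, beside 13.9% of all genes that rose and 23.1% that fell. Gm7336, which matches the coding sequence of Gapdh over 1017 aligned positions without a difference, gave 4.59, 6.81, 5.71 and 5.44 FPKM in WT and 19.9, 18.3, 18.2 and 11.6 FPKM in Esrp1_KO. It was 3.01-fold higher without overlap (1.42 ± 0.18, adjusted p = 0.000322). Gm5559 rose from 2.56 ± 0.883 to 6.01 ± 2.08 FPKM (adjusted p = 0.0108, and 0.0706 without WT replicate 1 and Esrp1_KO replicate 3). Gm2076 differs at 70 of 999 positions, of which 31 are gaps. It fell from 3.76 ± 1.28 to 0.672 ± 0.429 FPKM (-1.51 ± 0.23, adjusted p = 0.000857), and its ratio to Gapdh fell by 1.99 ± 0.24 (adjusted p = 0.00263). It was a member only through WT, so the rule favoured a fall. Gm8529 stood at 12.2 ± 1.02 and 11.4 ± 4.09 FPKM and did not pass. Gapdh itself was listed at only 0.688, 1.78, 0.481 and 0.368 FPKM in WT and 1.46 ± 0.209 FPKM in knockout libraries, and did not pass (adjusted p = 0.106). The ratio of Gm7336 to Gapdh rose by 0.94 ± 0.23 (adjusted p = 0.0282), a call that ended with the replicate block (0.0738), with log2(FPKM + 0.1) (0.428), and without WT replicate 1 or 2 or Esrp1_KO replicate 1, 2 or 3 (0.0523 to 0.0826). Over the aligned coding sequence reads of both cannot be told apart.

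Sms-ps, the exact copy of the spermine synthase gene Sms, gave 32.9, 28.6, 27.9 and 31.1 FPKM in WT and 6.46, 6.93, 8.24 and 9.31 FPKM in Esrp1_KO (-1.84 ± 0.14, adjusted p = 1.64e-05). Sms gave 35.6, 32.1, 30.5 and 36.6 FPKM in WT and 7.45, 10.3, 8.45 and 10.7 FPKM in Esrp1_KO (-1.77 ± 0.14). Both fell without overlap and by like amounts, and their sequence does not separate them. Of the 43 members whose symbol names the parent, 23.3% were called, beside 36.9% of all genes, and 5 rose (H3f3a-ps1, Atp6v0c-ps2, Rpl34-ps1, Gpr137b-ps and Smt3h2-ps4) and 5 fell (Sms-ps, Cbx3-ps6, Hmgb1-ps4, Ccnb1-ps and Rpl17-ps5). For 39 of them both genes were tested, and the ratio passed in 0 (limma, smallest adjusted p = 0.245; 5 at an unadjusted p under 0.05). Over all 53 pairs by name it passed in 1.89%. The changes of the ratio ran from -0.95 to 0.84. The other 33 of the 43 members did not pass. Most abundant among them were Tcea1-ps1 (64.2 FPKM in WT and 67.5 in Esrp1_KO), Ptges3-ps (55.6 and 71.3) and Oaz1-ps (71.7 and 55.2). Their parents Tcea1 (72.2 and 66.4 FPKM), Ptges3 (62.9 and 81.3) and Oaz1 (423 and 341) did not pass either.

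Among the named copies, Ccnb1-ps, a copy of the gene of cyclin B1, which drives entry into M phase, fell from 35.8 ± 4.71 to 23.1 ± 4.38 FPKM (-0.63 ± 0.16, adjusted p = 0.0145, and 0.0647 under TMM scaling). Ccnb1 fell from 828 ± 46.2 to 408 ± 67.5 FPKM. Hmgb1-ps4, a copy of a chromatin protein gene, fell from 66.2 ± 7.66 to 40.2 ± 8.02 FPKM (-0.72 ± 0.16, adjusted p = 0.00571), and Hmgb1 stood at 9.14 ± 1.51 and 11.2 ± 3.46 FPKM. Cbx3-ps6, a copy of a heterochromatin protein gene, gave 61.3, 54.6, 57.4 and 60.9 FPKM in WT and 18.5, 42.0, 30.3 and 25.4 FPKM in Esrp1_KO (-1.04 ± 0.21, adjusted p = 0.00414). Cbx3 was listed at 0.171 ± 0.0651 FPKM in WT, and 96.4% of the exon of Cbx3-ps6 overlaps exons of another gene. Atp6v0c-ps2 rose from 1.90 ± 0.388 to 5.79 ± 2.22 FPKM while Atp6v0c was listed at 0 in all WT libraries. Rpl34-ps1 lost its call without WT replicate 3 or 4 or Esrp1_KO replicate 2 (adjusted p up to 0.068). Smt3h2-ps4 lost its call without WT replicate 1, 2 or 4 or Esrp1_KO replicate 2 or 3 (up to 0.0854), and Rpl17-ps5 without WT replicate 1, 2 or 4 or Esrp1_KO replicate 1, 2 or 4 (up to 0.0667).

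Some large changes belonged to copies that share much of their sequence with a parent that moved the same way. Gm33700 (40.6% shared) fell from 56.2 ± 12.6 to 13 ± 3.85 FPKM (-2.04 ± 0.23) and its match 7420426K07Rik from 331 ± 45.4 to 103 ± 17.1 FPKM. Gm11847, a copy of the RNA-binding protein gene Hnrnpa3 (94.6% shared), fell from 11.6 ± 3.48 to 2.54 ± 1.31 FPKM (-1.88 ± 0.31). Gm7964, a copy of Hnrnpk (70% shared) and among the 10 most abundant members, fell by 0.58 ± 0.15 (adjusted p = 0.0137, and 0.0605 under TMM scaling), and Hnrnpk by 0.59 (176 ± 18.9 to 118 ± 23.7 FPKM). Hnrnpk lost its call without WT replicate 4 (0.0546) and under TMM scaling (0.0699).

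Among the rises of the same kind, Gm6821 (73.2% shared) went from 0.953 ± 0.769 to 5.88 ± 2.64 FPKM (1.84 ± 0.32), and Paqr6, a membrane progesterone receptor gene, from 4.03 ± 0.849 to 13.8 ± 3.98 FPKM. Gm6829 (70.4% shared) rose by 1.18 ± 0.22 and its parent Golga7, a Golgi protein gene, by 0.73. Gm17177 (35.1% shared) cannot be placed in this kind, as its best match was not tested. It rose 7.58-fold, from 0.724 ± 0.213 to 5.49 ± 1.92 FPKM (1.88 ± 0.20, adjusted p = 0.000118). Gm7823, a copy of the actin-bundling gene Lcp1, was not of this kind, as it shares only 4.19%. It rose from 1.43 ± 0.451 to 4.74 ± 1.88 FPKM. Gstp-ps (71.1% shared) rose from 3.14 ± 1.15 to 7.83 ± 2.16 FPKM. Its best match Gstp2 went the same way, from 2.38 to 4.40 FPKM, but did not pass (0.49 ± 0.41, adjusted p = 0.379). Abundant members that did not pass were Gm6382, a copy of the histone-binding gene Rbbp7 (130 ± 6.93 and 151 ± 22.2 FPKM), and Fbxw23 (117 ± 30.7 and 111 ± 10.5 FPKM).

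A row of 10 copies of Gm19965 lies on the minus strand of chromosome 6 (chr6:130483189-131182379), at 81.7 to 88.2% identity. Gm44134 gave 58.8, 92.5, 66.1 and 67.8 FPKM in WT and 27.7, 28.2, 44.8 and 41.0 FPKM in Esrp1_KO (-1.002 ± 0.20, adjusted p = 0.00365). Gm38706 also fell (adjusted p = 0.0444), a call lost without WT replicate 2 or 3 or Esrp1_KO replicate 1, 2, 3 or 4 (0.0525 to 0.114) and under TMM scaling (0.167). The other 8 did not pass, and 0 rose, beside 13.9% of all genes that rose and 23.1% that fell. Gm44527, the most abundant, stood at 112 ± 12.6 and 124 ± 16.5 FPKM. Gm19965 on chromosome 1 rose from 1.53 ± 0.154 to 4.14 ± 1.52 FPKM (0.98 ± 0.20, adjusted p = 0.00397). The ratio to it fell for all 10, and as they share this 1 low denominator the 10 calls are a single observation on Gm19965.

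A stretch of chromosome 13 from 62 to 68 Mb, chosen after its values were seen, held 8 members, of which 6 fell and 0 rose (75.0%). Of 30 other genes tested there, 14 fell and 0 rose (46.7%). Over all genes 23.1% fell, and nothing is read from the difference for a stretch chosen in this way. Gm10323 and Gm19428, named below, were members only through WT. Zfp640, a zinc finger gene annotated as a pseudogene, fell from 13.7 ± 0.923 to 3.33 ± 0.544 FPKM (-1.77 ± 0.13, adjusted p = 1.64e-05). Gm46426 fell from 59.6 ± 7.12 to 19.6 ± 3.56 FPKM, Gm10323 from 7.14 to 1.06 FPKM and Gm19428 from 4.51 to 1.71 FPKM. Gm3333 (0.389% shared) fell from 40.3 ± 8.61 to 20.8 ± 8.09 FPKM (adjusted p = 0.0205), and lost its call without WT replicate 2 (0.0538) or 3 (0.0564) or Esrp1_KO replicate 4 (0.0556).

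Genes of the small RNA pathway, through which some pseudogene transcripts are processed in oocytes, had no call in the test without a block. Of 20 listed genes 10 were tested, and by limma 0 rose and 0 fell (0 at an unadjusted p under 0.05), beside 36.9% of all genes called. With TMM scaling 1 was higher (Ago3), and with the replicate block 1 was lower (Tdrd1). Dicer1, which cuts the double-stranded precursors, stood at 17.4 ± 1.69 and 16.3 ± 2.05 FPKM (adjusted p = 0.598). Of the 5 listed target genes of endogenous siRNAs 4 were tested and 0 passed. Gm15681, a copy of the phosphatase subunit gene Ppp4r1 that lies within Cdh8 on chromosome 8, was far above its parent. As it shares only 2.18% of its 50-base stretches, its sequence is shown (chr8:99147878-99147937, minus strand, capitals where the sequences differ):
Gm15681: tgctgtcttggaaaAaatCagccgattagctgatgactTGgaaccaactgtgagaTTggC
Ppp4r1: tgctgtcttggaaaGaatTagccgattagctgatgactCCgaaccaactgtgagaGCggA
Gm15681 gave 59.3, 59.5, 53.5 and 53.4 FPKM in WT and 79.2, 60.5, 54.0 and 68.7 FPKM in Esrp1_KO, while Ppp4r1 stood at 0.986 ± 0.208 and 1.32 ± 0.287 FPKM. The ranges overlapped and Gm15681 did not pass (0.20 ± 0.14, adjusted p = 0.276).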

How the data were processed

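Poly(A) RNA of 4 tubes of wild-type and 4 of Esrp1_KO mouse oocytes was sequenced. The deposited files hold FPKM per gene, per the file headers, and the submitters' processing notes name the genome build GRCm38. The sources used here do not name the aligner, counter or gene models, nor how reads matching several genes were assigned (not given in the sources used here). Groups came from the labels. Nothing says that tubes of a group came from separate animals, so the p-values may rest on technical spread alone.

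Gene types came from GENCODE M21. Values at a mean of at least 1 FPKM (8021 genes) were tested as log2(FPKM + 1), which understates changes of low genes, with limma 3.58.1 in R 4.3.3 (intensity trend, two-sided, Benjamini-Hochberg over all genes, threshold 0.05). The fit and the pair test were tested on simulated data. Parents were found with blastn 2.17.0 (at least 80% identity over 50% of the copy), and 50-base sharing was computed in Python 3.11.15. Pair ratios were tested with limma over all pairs and, for ratios singled out, by exact permutation over 70 arrangements. The size of 1 read was estimated from low values, and values in all 8 libraries then gave whole reads (within 0.02) for 334 members. Same-numbered libraries deviated together (r = 0.262, 0.317, 0.226 and 0.261), which meets the rule set for pairing (each above 0.1). Unlike numbers did so too (WT 4 with Esrp1_KO 1 at 0.402, WT 3 with Esrp1_KO 2 at 0.252, WT 2 with Esrp1_KO 3 at 0.176, and WT 1 with Esrp1_KO 4 only at 0.0171). Replicates 1 and 4 thus went together across the groups, and so did replicates 2 and 3. Every pairing between these sets was negative (-0.126 to -0.407). Deviations from a group mean cancel within the group, so negative values beside positive ones are in part forced and add no separate evidence. The data do not single out the replicate numbers, and a block by set was not fitted. The main test has no block.

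The rule for naming gave the 12 largest rises and 12 largest falls without overlap, the 10 most abundant members, up to 20 members with a parent in the symbol, members at the edge of the rule, their parents, and up to 4 small RNA genes. Not all of these are named in the text. Others, among them 2700099C18Rik, Gm36448, Gm8529, Gm15681, Gm3333, Gm38706 and members of the mitochondrial, H3f3a, Gapdh, Gm19965 and chromosome 13 groups, were chosen after their values were seen. Members and lists were chosen with earlier results of these data known. Other pseudocounts, filters, scalings, a replicate block, subsets and left-out libraries were tried.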

Additional observations from a re-analysis of the deposited data

Results flagged for a closer look

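In 6 groups of 4 libraries 1 library lay far from the others, out of 140 groups examined, and chance flags about 1 in 20. Among WT libraries, Rps2-ps13 stood at 10.06 FPKM in replicate 1 and at 0.3135 to 0.9666 FPKM in the others. Fbxw23 stood at 163 FPKM in replicate 2 against 100.5 to 102.4 FPKM, and Gm28438 at 9.848 FPKM in replicate 2 against 6.486 to 6.813 FPKM. Gm7823 stood at 2.108 FPKM in replicate 4 against 1.168 to 1.256 FPKM, and Pcna-ps2 at 0.6874 FPKM in replicate 4 against 1.206 to 1.24 FPKM. Among Esrp1_KO libraries, Zfp640 stood at 2.524 FPKM in replicate 4 against 3.513 to 3.696 FPKM.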

How the results depend on the processing

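Of 100 genes checked, 76 were past the threshold. Of these 76, 44 kept their call in every setting, 32 lost it in at least 1 and 0 changed direction. The genes checked include some chosen after their values were seen. They leave out some genes that the naming rule gave, among them genes that did not pass, so these counts do not describe the rule. Leaving out 1 library gave 42 to 65 members higher and 63 to 72 lower (median log2 change -0.12 to 0.02), and TMM scaling moved the median to 0.0842. Members with at most 20% shared sequence counted 17 higher and 26 lower, and replicates 1 and 4 alone gave 35 higher. The ratio to the parent by sequence rose in 5 pairs with log2(FPKM + 0.1), 25 without a filter, 4 at a mean of at least 5 FPKM (8 fell), 0 with replicates 1 and 4 alone (11 fell), 0 with replicates 2 and 3 alone (2 fell), and 3 to 8 without 1 library (29 to 41 fell). With the replicate block 70 members were higher and 88 lower, as were 53 and 37 parent genes (36 and 33 without it), the ratio rose in 4, and 1 small RNA gene was lower, against 1 higher with TMM scaling. Among single genes and ratios checked, the block changed the calls of 2700099C18Rik, Tdrd1 and the ratios of Gm10222, Gm28439, Gm7336 and Gm8801, and of no others. Without both WT replicate 1 and Esrp1_KO replicate 3, a setting chosen after seeing the data, 2 rose and 18 fell. By name, 2 rose and 2 fell without a filter, 0 fell at 5 FPKM, with replicates 2 and 3 alone or without both libraries, and 1 to 2 fell without 1 library. Of the 24 genes checked that were not past the threshold, 10 changed sign. Under TMM scaling these were Bmi1 (0.0900), Mphosph6 (0.052), Ppp1r10 (0.13), Dicer1 (0.046), Fbxw23 (0.097) and Gm48458 (0.0013). Under quantile normalization they were Mphosph6 (0.037) and Ppp1r10 (0.077). With replicates 2 and 3 alone they were Ppp1r10 (0.12), Rps2-ps13 (0.16), Gm6382 (-0.0048) and Gm44527 (-0.096), and with replicates 1 and 4 alone Fbxw23 (0.026). Without 1 library, or without both, the ranges spanned 0 for Mphosph6 (-0.2403 to 0.03265), Ppp1r10 (-0.08326 to 0.04329), Rps2-ps13 (-0.8062 to 0.2183), Fbxw23 (-0.1531 to 0.1161), Gm8529 (-0.3257 to 0.02136) and Gm48458 (-0.2956 to 0.05393). The cause was not tested. Where a copy shares nearly all stretches with another gene, its level depends on how reads were assigned, and low members rest on few reads.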
